A study of Mus musculus with 15 samples.

Results

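The PDGFRβ-positive brain cells of wild-type (WT) mice that had sham surgery were profiled by RNA-seq in 3 libraries, numbered 1 to 3 in the labels, and are described here as the baseline of the isolate. These are 3 of 15 samples of a study of neonatal hypoxic-ischemic (HI) brain injury and microRNA-210. The remaining groups were sham mice with a microRNA-210 knockout (KO), with 4 samples, and WT and KO mice at 24 h of recovery from HI, with 4 samples each; none of these enters any value below. All genes with a value in the deposited table were ranked by their mean level over the 3 libraries, 17892 of 65535 lines, and no group was compared with another. The labels state the cell type, genotype and treatment but no age, sex or strain, do not say how the cells were isolated, and do not say whether the 3 libraries came from separate animals or pools. Any spread given here may therefore be technical as well as biological.

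PDGFRβ is the receptor for platelet-derived growth factor B, which endothelial cells release to recruit and hold the cells that wrap small vessels. In the brain its main carriers are pericytes, which sit inside the basement membrane of capillaries, vascular smooth muscle cells of arteries and arterioles, and fibroblasts of the meninges and larger vessels. Pericytes are physically bound to endothelium through a shared basement membrane and cell contacts, help to form the blood-brain barrier, and regulate capillary tone.

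Total expected counts were 17695039, 17539492 and 17911825 in libraries 1, 2 and 3. Levels are given as counts-per-million (CPM) values, the count of a gene scaled by its library's total. Because a long transcript yields more reads than a short one, ranks by CPM and shares of counts also reflect transcript length. Levels per length (TPM) are CPM divided by the length of the longest annotated transcript and scaled to the same total in each library. At this depth 3 counts equal 0.167 to 0.171 CPM, a floor that covers counting error only. Of the genes with values, 13262, 13726 and 13555 reached 1 CPM in libraries 1, 2 and 3, and 13087 reached it in every library, or 73.1% of the genes with values; these are the genes termed detected below. The table carried values for 17841 protein-coding genes and for no gene matched to a long non-coding RNA or to the mitochondrial genome, so the CPM total excludes both. Mir210, the gene deleted in the KO mice, had 1 line and no value in any of these libraries.

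Pdgfrb itself stood at 975, 702 and 915 CPM in libraries 1, 2 and 3, a mean of 864 ± 143 CPM (SD, n = 3) and rank 110 of all genes. The libraries thus carried the transcript used to name the cells, highest in library 1 and lowest in library 2. Marker genes of 12 cell types were then used to ask what else the isolate held. All 20 pericyte markers were detected, with a median of 145 TPM against 27.8 TPM over all detected genes. Markers of the other cell types that carry the receptor were present as well: 14 of 15 arterial smooth muscle markers were detected with a median of 88.7 TPM, and 14 of 14 fibroblast markers with a median of 184 TPM. The 18 endothelial markers were all detected and had the highest median of the 12 lists, 589 TPM. All 16 microglia markers were detected with a median of 294 TPM. In bulk RNA, fewer cells of a type and less RNA per cell cannot be told apart, so these medians are not cell fractions, and the share of each cell type in the values below was not tested.

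**Figure D1:**
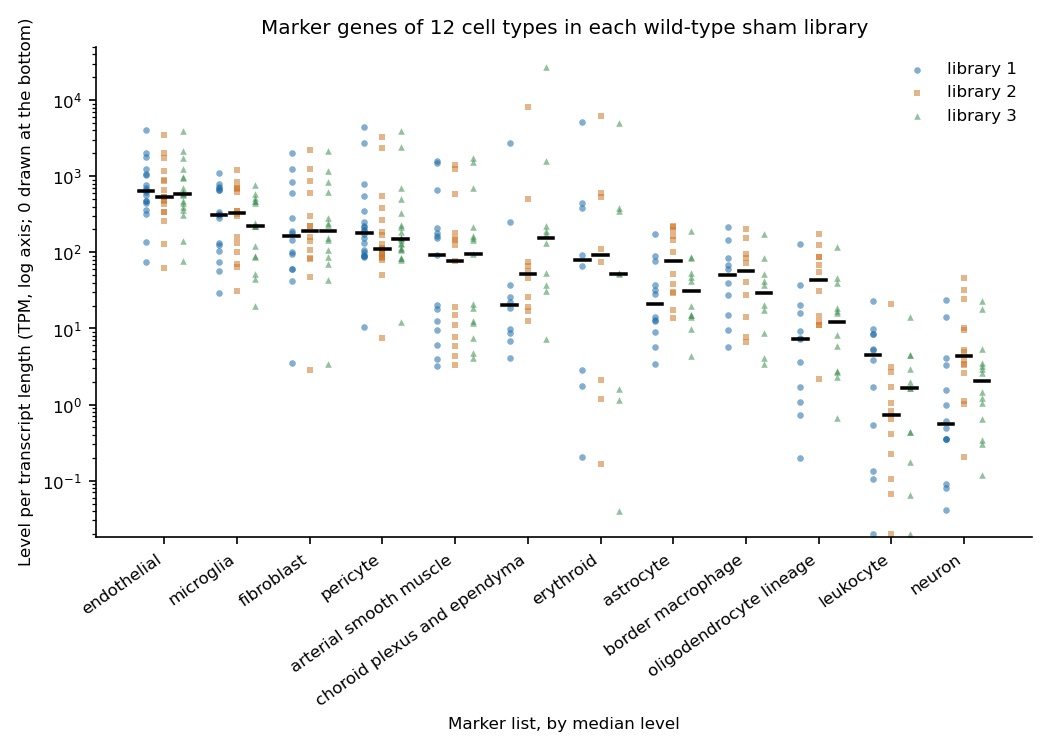
Level per transcript length (TPM, log axis) of each marker gene in the 12 marker lists, with libraries 1, 2 and 3 as blue circles, orange squares and green triangles; black bars are list medians per library and values of 0 are drawn at the bottom of the axis. Endothelial markers have the highest medians, from 535 to 640 TPM, while the choroid plexus median is 20.6 TPM in library 1 and 154 TPM in library 3.

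Of the 12 marker lists, those of choroid plexus and ependyma, oligodendrocyte lineage, neurons and astrocytes differed most between libraries in their sums. The 10 choroid plexus and ependyma markers summed to 1447 CPM in library 1, 4085 CPM in library 2 and 13389 CPM in library 3. All 10 were lowest in library 1 and 9 were highest in library 3. Of all genes at a mean of 10 CPM or more, 32.5% were lowest in library 1 and 28.2% were highest in library 3. The 12 astrocyte markers summed to 681, 1958 and 841 CPM, the 12 oligodendrocyte lineage markers to 276, 986 and 348 CPM, and the 14 neuron markers to 69.7, 212 and 92.7 CPM in libraries 1, 2 and 3. These 3 neural lists were highest in library 2, where 36.4% of all genes at a mean of 10 CPM or more were highest. In every library, 10 of 12 astrocyte, 6 of 12 oligodendrocyte lineage and 2 of 14 neuron markers reached 10 CPM. Only 7 of 14 neuron markers were detected, so that share covers little of the neuron list. In the 3 lists 11 of 12, 11 of 12 and 13 of 14 genes were at their highest in library 2. Each of these means moves by over 1.5 times when 1 library is left out: the choroid plexus mean falls from 6307 to 2766 CPM without library 3, and the astrocyte, oligodendrocyte and neuron means fall from 1160.2, 536 and 125 CPM to 761, 312 and 81.2 CPM without library 2. Library 3 was lowest in all 16 microglia markers, all 10 markers of border macrophages, the macrophages of meninges and perivascular spaces, and all 8 erythroid markers. Of all genes at a mean of 10 CPM or more, 38.9% were lowest in library 3. The microglia list summed to 4253, 4533 and 3148 CPM and the border macrophage list to 1047, 1057 and 745 CPM in libraries 1, 2 and 3. Leukocyte transcripts were scarce: 4 of 12 leukocyte markers were detected and the list summed to 64.1, 48.7 and 37.0 CPM. Most of each sum was Ptprc alone, at 44.2, 40.4 and 27.4 CPM, lowest in library 3 like the microglia markers. The part of microglia in it was not tested. Ly6g, a neutrophil surface protein, was listed at 0 in libraries 1 and 2.

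The transcripts of highest CPM combined protein synthesis, vessel wall matrix and vascular cell genes. Eef1a1, the elongation factor that brings aminoacyl-tRNA to the ribosome, headed the ranking with 6903, 7373 and 6950 CPM in libraries 1, 2 and 3. Fn1, fibronectin of the extracellular matrix, followed with 7049, 6333 and 6673 CPM, and Col4a1, a chain of basement membrane collagen, with 7054, 5841 and 6330 CPM. The ranges of these 3 genes overlapped, so their order by CPM lies within the spread between libraries. Rgs5, a regulator of G protein signaling that is among the most used pericyte markers, stood at 6049, 4585 and 5534 CPM. Sparc, a collagen-binding glycoprotein, stood at 4917, 4555 and 5016 CPM. Bsg, basigin, a membrane glycoprotein that escorts monocarboxylate transporters to the cell surface, stood at 5013, 4596 and 4357 CPM. Ranks 8 to 11 were held by Col4a2 with a mean of 4380 ± 407 CPM, Eln (elastin) with 3943 ± 710 CPM, Slc16a1 (the monocarboxylate transporter MCT1) with 3491 ± 177 CPM and the growth factor Igf2 with 3376 ± 186 CPM (SD, n = 3). The first 20 also held Eef2, Actb, Actg1, Fth1, Spock2, Col1a2, Epas1 and Sparcl1, with means from 2015 CPM for Sparcl1 to 2497 CPM for Eef2. Epas1 encodes HIF-2α, an oxygen-sensitive transcription factor of vascular cells, and had 2118, 1880 and 2110 CPM. Library 2 was the lowest.

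Ttr was the exception among these abundant genes. It encodes transthyretin, a thyroid hormone carrier that choroid plexus epithelium secretes, and stood at 1083, 3300 and 11029 CPM in libraries 1, 2 and 3. Its mean of 5137 CPM placed it at rank 5, but the SD of 5221 CPM exceeded the mean, and without library 3 the mean was 2191 CPM. In library 3 Ttr held more counts than any other gene. The other 19 genes of the first 20 had coefficients of variation (CV, the SD over the mean) of at most 18.02%, the value of Eln.

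**Figure D2:**
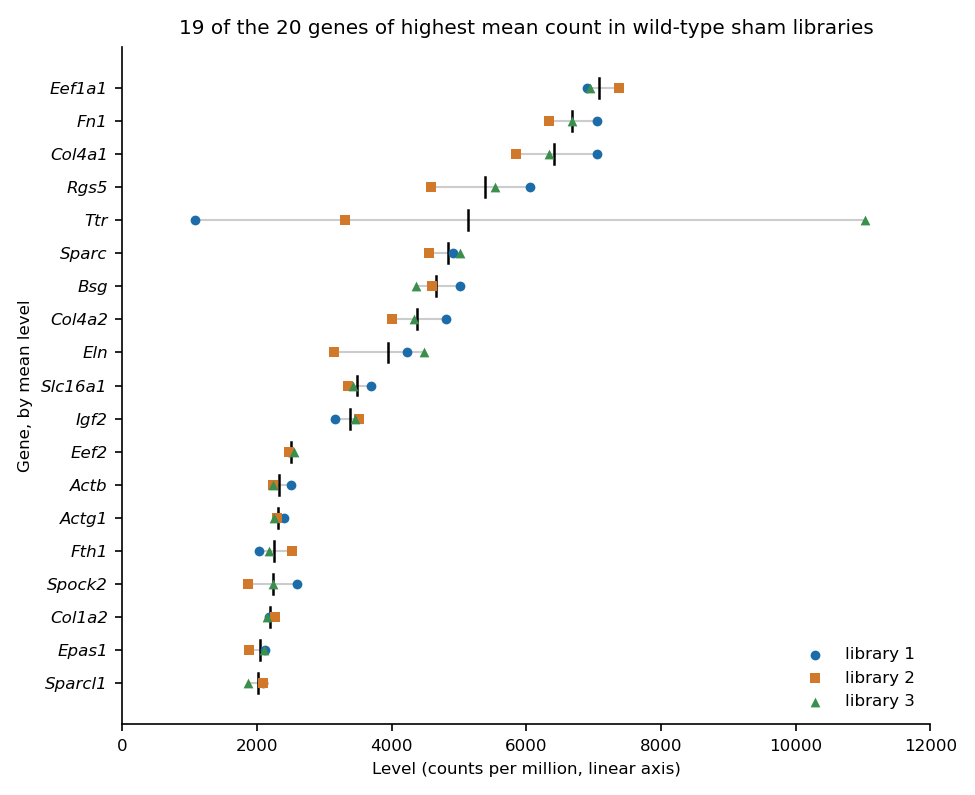
Level in CPM (linear axis) of 19 of the 20 genes of highest mean, with libraries 1, 2 and 3 as blue circles, orange squares and green triangles, the mean as a black bar and the range as a gray line. Ttr spans 1083 to 11029 CPM, whereas the other genes keep within narrow ranges, and Rgs5, Eln and Spock2 are lowest in library 2.

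No few genes dominated the libraries. The 10 most abundant genes held 5.20% of the counts, the top 100 held 17.8% and the top 1000 held 48.2%, and 1097 genes were needed to reach 50% of the counts. Of the 200 most abundant genes, 17 were cytosolic ribosomal proteins with 1.28% of all counts and 17 were cytoskeletal genes with 1.99%. Matrix genes were more concentrated: 6 collagens in the top 200 held 1.69% of all counts, 8 matricellular and adhesive glycoproteins held 1.84% and 7 laminins and other basement membrane proteins held 0.818%. Immediate early genes, most of which encode transcription factors that many stimuli induce within a short time, placed 5 members in the top 200. Fos had 1399, 1379 and 1329 CPM and Egr1 had 1136, 1282 and 1006 CPM in libraries 1, 2 and 3; Junb, Zfp36 and Jun had means of 1283, 899 and 839 TPM. These 5 genes were high in all 3 libraries, with library 3 the lowest for each.

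Ranked per length, short transcripts rose. Ttr led with 2757, 8236 and 27420 TPM, followed by Eef1a1 with 11737 ± 385 TPM, Bsg with 9085 ± 765 TPM and Sparc with 6250 ± 336 TPM (SD, n = 3). Hba-a1, an α-globin of red cells, had 5169, 6113 and 5040 TPM, and the actin-binding peptide gene Tmsb4x had 5060 ± 395 TPM. Red cell transcripts were thus present in all 3 libraries, with α-globin highest in library 2. Rgs5 at 3919 ± 576 TPM and Cldn5, the main tight junction claudin of brain endothelium, at 3848 ± 281 TPM had overlapping ranges. Apoe, the lipid carrier of astrocytes, macrophages and mural cells, had 3479, 4497 and 3272 TPM. Pairs such as Hba-a1 and Hba-a2, Actb and Actg1, and the many ribosomal protein genes with processed copies share sequence, and the split of reads between such copies is uncertain.

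Among the 20 pericyte markers, some varied and others did not. Vtn, vitronectin, an adhesive protein that brain pericytes secrete, followed Rgs5 with 2522 ± 212 TPM, and Mcam, an adhesion molecule of mural and endothelial cells, had 678 ± 119 TPM (SD, n = 3). Pdgfrb had 543, 383 and 498 TPM and Notch3, the Notch receptor of mural cells, had 346, 267 and 332 TPM in libraries 1, 2 and 3. In all 4 genes library 2 was the lowest. The ranges of the list members differed. Abcc9, the regulatory subunit of the vascular ATP-sensitive potassium channel, had 486, 211 and 392 CPM, a 2.30-fold range. Its pore Kcnj8 had 132, 68.6 and 116 CPM, a 1.92-fold range, and the pump Atp13a5 had 288, 159 and 225 CPM, a 1.81-fold range. Cox4i2 and Higd1b, genes of mitochondrial proteins, had 1.75-fold and 1.69-fold ranges, and the proteoglycan Cspg4, also known as NG2, a 1.59-fold range. Library 2 was the lowest in each of these genes. The transcription factor genes Foxc1 and Tbx18 had 1.04-fold ranges, at 172, 171 and 166 CPM and at 136, 139 and 133 CPM, and Zic1 a 1.10-fold range at 191, 183 and 202 CPM, while Foxf2, another transcription factor gene, had a 1.17-fold range at 169, 147 and 173 CPM. Not all membrane protein genes varied as Abcc9 did: Anpep, an aminopeptidase, had a 1.15-fold range, and the amino acid carrier Slc6a20a a 1.09-fold range with library 1 the lowest. Over the whole list 16 of 20 markers were lowest in library 2, where 28.7% of all genes at a mean of 10 CPM or more were lowest. The summed list stood at 12851, 9751 and 11848 CPM, a 1.32-fold range. Endothelial markers shared the order in a narrower range. Of these, 16 of 18 were lowest in library 2, and their sums were 14340, 13012 and 14247 CPM, a 1.10-fold range. A low in library 2 was thus not particular to the pericyte list. The neural lists were highest in that library, and their part in these values was not tested.

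Contractile genes of arterial smooth muscle were led by Acta2, smooth muscle α-actin, with 1069, 955 and 1185 CPM, followed per length by Myl9 (a myosin light chain) at 1421 ± 151 TPM and Tagln (transgelin) at 650 ± 62.3 TPM (SD, n = 3). Myh11, the smooth muscle myosin heavy chain, had 455, 399 and 472 CPM. These genes were lowest in library 2 and highest in library 3, as were 13 and 12 of the 15 members of the list. Over all genes at a mean of 10 CPM or more these shares were 28.7% and 28.2%. Cnn1, Pln and Myocd were low, with means of 7.78, 5.08 and 6.49 CPM. The fibroblast list was led by Igf2 and the fibrillar collagens. Its steadiest member was Col1a1 at 1194, 1223 and 1232 CPM. In this list 12 of 14 genes were lowest in library 1, against 32.5% of all genes at a mean of 10 CPM or more. Dpt, dermatopontin, was the only member below 10 CPM, with a mean of 1.90 CPM.

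Receptors as a class were detected in 330 of 615 genes with values, 53.7%, with a median of 19.1 TPM over those detected, and summed to 3.35% of all counts. Of all genes with values 73.1% were detected. Receptor tyrosine kinases, which signal for growth factors, held the most counts of the receptor families, 0.827%, with 45 of 55 genes detected. Per length Kdr, the endothelial VEGF receptor 2, came first with 757, 660 and 705 TPM. Csf1r, the receptor for colony-stimulating factor 1 on microglia and macrophages, had 664, 678 and 477 TPM, lowest in library 3 like the other microglia markers, and Tie1, an endothelial receptor of the angiopoietin system, had 618, 541 and 586 TPM. Pdgfrb was 4th in the family at 475 ± 82.3 TPM, ahead of Tek (the angiopoietin receptor TIE2) at 447 ± 19.6 TPM and Flt1 (VEGF receptor 1) at 396 ± 57.8 TPM (SD, n = 3). Neighbors among these 6 genes overlapped in their ranges. Within each of the 3 libraries Tie1 exceeded Pdgfrb and Tek exceeded Flt1, while the other neighbors changed order between libraries. With coding length both of these orders reversed in the means: Pdgfrb had 305 and Tie1 284 TPM, and Flt1 had 268 and Tek 242 TPM. The paralog Pdgfra, a fibroblast and oligodendrocyte precursor gene, had 137, 196 and 162 CPM, highest in library 2 where Pdgfrb was lowest. The ratio of Pdgfrb to Pdgfra per length was accordingly 8.95, 4.52 and 7.13. Pdgfb, the ligand gene, was itself present at 336, 272 and 312 CPM.

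Receptors of the transforming growth factor β family were led by Eng (endoglin), a co-receptor of endothelium, with 887, 732 and 816 TPM, and by Acvrl1 (ALK1) at 349, 300 and 314 TPM. Their ranges did not overlap. The signaling pair Tgfbr1 and Tgfbr2 kept a ratio of 0.538, 0.563 and 0.535. Of 9 Notch receptors and ligands 8 were detected. Notch3 was highest, followed by the ligands Jag2, Jag1 and Dll4 at 174 ± 19.9, 164 ± 13.4 and 130 ± 19.0 TPM (SD, n = 3), and Notch3 exceeded Notch1 by 2.60, 2.47 and 2.69 times in libraries 1, 2 and 3. Itgb1, the integrin β1 chain that pairs with most matrix-binding α chains, had 1162, 1062 and 1028 TPM and made up 47.8% of the summed level of the 28 integrin genes. Its α partners Itga6 and Itga5, chains for laminin and fibronectin receptors, had overlapping ranges at 162, 153 and 142 TPM and at 162, 142 and 153 TPM, and Itga7, another laminin receptor chain, lay at 149 ± 12.3 TPM (SD, n = 3). The guidance receptors Nrp1, Plxnd1 and Plxnb2 followed at 285 ± 22.1, 233 ± 21.6 and 221 ± 4.96 TPM.

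G protein-coupled receptors for vasoactive peptides, amines and purines were sparse: 41 of 122 were detected and 22 reached a mean of 10 CPM. Of all genes with values 73.1% were detected and 57.6% reached that mean. Aplnr, the apelin receptor of endothelium, led with 463, 496 and 476 TPM. The microglial ADP receptor P2ry12 came next with 306, 345 and 219 TPM, and P2ry13 with 107, 111 and 80.8 TPM. Library 3 was the lowest for both, as for all microglia markers. The mural endothelin receptor Ednra, which mediates constriction, had 110, 76.3 and 97.2 TPM. Ednrb, found on endothelium and astrocytes, had 26.6, 67.0 and 40.0 CPM and was highest in library 2. The ratio of Ednra to Ednrb was thus 5.64, 1.58 and 3.38, the widest of the receptor pairs. F2r, the thrombin receptor, and Adora2a, a vasodilator adenosine receptor, had means of 89.8 and 84.3 TPM. Among lipid receptors S1pr1, the endothelial sphingosine-1-phosphate receptor, had 191, 208 and 191 TPM, and S1pr3, its mural relative, had 147, 93.7 and 123 TPM. Tbxa2r, the thromboxane receptor of contractile cells, had 65.5, 35.3 and 55.5 TPM. S1pr1 was steady, while S1pr3 and Tbxa2r were lowest in library 2.

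Adhesion G protein-coupled receptors were led by Adgrl4 and Adgre5 at 404 ± 20.5 and 378 ± 28.8 TPM with overlapping ranges (SD, n = 3), followed by Adgra2, a Wnt7 co-receptor of brain endothelium, at 333 ± 15.1 TPM. Of the Frizzled receptors and their co-receptors all 13 were detected, with Fzd6 first at 248, 215 and 227 TPM. Chemokine receptors were led by the microglial fractalkine receptor Cx3cr1 at 285, 304 and 223 TPM, lowest in library 3, and by Ackr3, a scavenger of CXCL12, at 162 ± 8.81 TPM. Cytokine receptors were led by Ifnar1, a type I interferon receptor chain, at 264, 245 and 247 TPM. Il6st (gp130), the shared signal chain of the interleukin-6 family, had 376, 380 and 380 CPM. Its CV of 0.587%, the smallest of the 6 leading members, is below what counting error alone would give. Its partner Lifr, the leukemia inhibitory factor receptor, stood 6.48, 6.98 and 6.83 times lower per length. Tnfrsf19 led the TNF receptors with 279, 279 and 261 TPM. Of 1111 lines for olfactory receptors 78 carried values. Of these, 4 were detected and 2 reached a mean of 10 CPM, against 73.1% and 57.6% of all genes with values. The 2 were Olfr78 at 28.1, 24.2 and 30.0 CPM and Olfr558 at 12.72, 11.57 and 12.95 CPM, both known from arterial smooth muscle. They followed the order of the contractile genes, lowest in library 2 and highest in library 3.

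**Figure D3:**
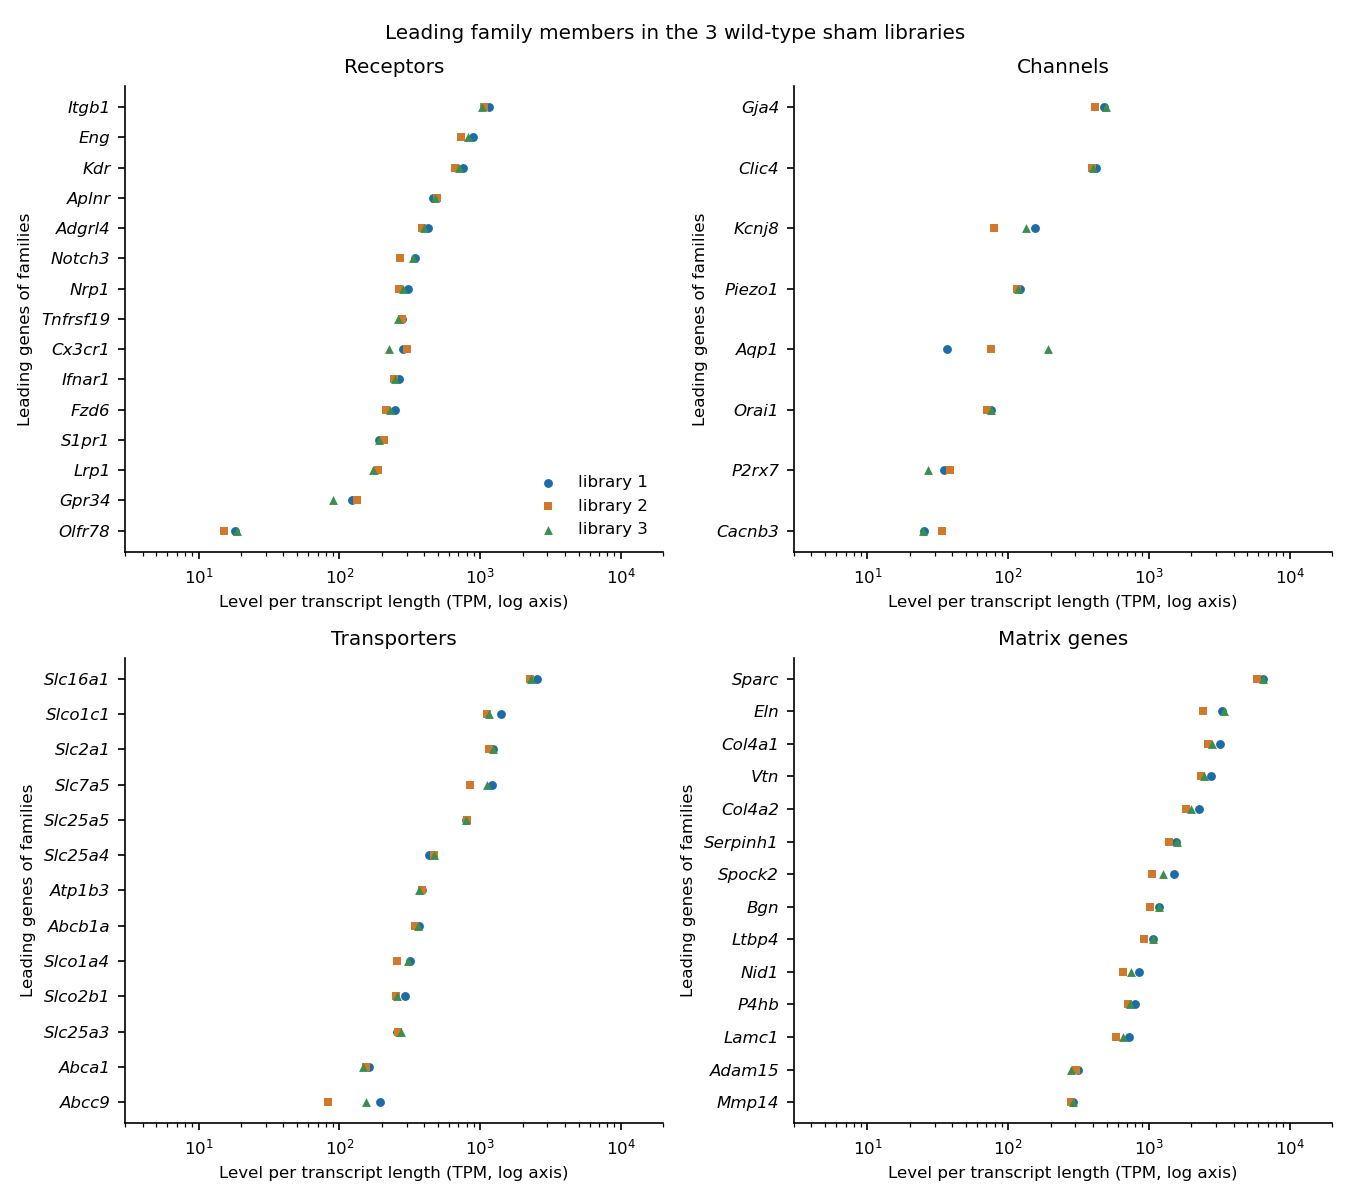
Level per transcript length (TPM, log axis) in libraries 1, 2 and 3 (blue circles, orange squares, green triangles) of the first gene of receptor and channel families, up to the first 3 of transporter families and the first 2 of matrix families. Kcnj8 and Abcc9 are lowest in library 2, and Aqp1 is spread from 36.8 TPM in library 1 to 192 TPM in library 3.

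Channels were the class of lowest level, with 149 of 317 genes detected, 47.0%, a median of 10.7 TPM over those detected and 0.670% of all counts. Of all genes with values 73.1% were detected. The connexin gene Gja4 and the anion channel gene Clic4 had the highest means per transcript length, with overlapping ranges, and with coding length Clic4 (861 TPM) and Clic1 (321 TPM) lay above Gja4 (308 TPM). Gja4 (connexin 37), of endothelial and mural gap junctions, had 483, 411 and 500 TPM and held 39.9% of the summed level of its family. Gja1 (connexin 43), shared by astrocytes and vascular cells, had 173, 225 and 191 TPM, highest in library 2, while Gja5 (connexin 40) had 168, 147 and 170 TPM and Gjc1 (connexin 45) had 158, 107 and 124 TPM. Among potassium channels 45 of 92 were detected. Kcnj8 led with 156, 79.7 and 134 TPM. The next 2 members, Kcnj13 at 26.2, 56.9 and 174 TPM and Kcne2 at 9.90, 37.8 and 117 TPM, are apical or auxiliary channel genes of choroid plexus epithelium and followed the order of Ttr. Without library 1 the first place in the family passed from Kcnj8 to Kcnj13. Kcnk2, Kcne4 and Kcnq1 had means of 29.9, 27.3 and 25.7 TPM.

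The ratio of Kcnj8 to Abcc9 was 0.798, 0.956 and 0.869 in libraries 1, 2 and 3. These subunits of 1 channel thus varied by 31.2% and 38.5% (CV, n = 3) as single genes and by 9.05% as a ratio. Calcium entry genes were moderate. The L-type pore Cacna1c had 92.6, 69.7 and 79.8 CPM, the T-type pores Cacna1g and Cacna1h had 35.4, 41.3 and 39.0 CPM and 35.7, 30.2 and 37.7 CPM, with means of 18.3, 13.7 and 12.5 TPM, and the first member per length was the auxiliary subunit Cacnb3 at 28.0 ± 5.16 TPM. Release and store-entry genes were higher than the voltage-gated pores: Orai1 had 75.3, 71.3 and 75.5 TPM, Itpr1 had 59.3, 54.1 and 68.6 TPM and Stim1 had 41.6, 44.0 and 53.0 TPM. The stretch-gated channel Piezo1 was steady at 332, 319 and 327 CPM, as were Pkd2 at 163, 160 and 154 CPM and Trpm7 at 114, 110 and 111 CPM. Trpm3, a cation channel of choroid plexus, had 32.7, 93.5 and 240 CPM and moved with Ttr. None of the 15 voltage-gated sodium channel genes with values reached a mean of 10 CPM, against 57.6% of all genes with values.

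Chloride and anion channels were led by Clic4 and Clic1 at 404 ± 14.4 and 403 ± 22.2 TPM (SD, n = 3), not separable by their ranges. Of 11 aquaporin genes with values 3 reached a mean of 10 CPM, against 57.6% of all genes with values. Aqp1, the water channel of choroid plexus, had 32.0, 67.3 and 171 CPM, and Aqp4, of astrocyte endfeet, had 21.8, 88.8 and 26.0 CPM, so that the order of the libraries was that of the choroid plexus list for Aqp1 and of the astrocyte list for Aqp4. Aqp11 had 16.0, 16.9 and 16.0 CPM. Ligand-gated channels reached a mean of 10 CPM in 6 of 65 genes, against 57.6% of all genes with values. They were led by the ATP-gated P2rx7 at 34.9, 38.9 and 26.9 TPM, in the order of the microglia list.

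Transporters were detected in 323 of 466 genes, 69.3%, with a median of 31.0 TPM over those detected, and summed to 3.75% of all counts. Several leading members are known from the blood-brain barrier. Slc16a1, which moves lactate and ketone bodies, led with 2518, 2242 and 2286 TPM and held 13.2% of the summed level of the solute carriers. Slc2a1, the glucose transporter GLUT1, had 1241, 1160 and 1229 TPM. Slc7a5 (LAT1), the large neutral amino acid carrier, had 1205, 845 and 1124 TPM, and its heavy chain Slc3a2 had 742, 643 and 669 TPM, a ratio of 1.62, 1.31 and 1.68. Slc16a1 and Slc2a1 stayed within narrow ranges, and Slc7a5 was low in library 2. The taurine transporter Slc6a6 had 839, 784 and 796 TPM, and the glutamine carrier Slc38a5 had 761, 759 and 696 TPM. Slco1c1, a carrier of thyroid hormone, had 1397, 1116 and 1150 TPM and made up 65.5% of the summed level of the organic anion carriers. Slco1a4 and Slco2b1 followed at 294 ± 30.9 and 267 ± 21.8 TPM with overlapping ranges (SD, n = 3).

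Export pumps of the ABC family were led by Abcb1a (P-glycoprotein) at 365, 343 and 363 TPM. Abca1, which loads cholesterol onto apolipoproteins, had 162, 155 and 147 TPM, Abcc9 had 196, 83.3 and 154 TPM, and Abcg2, the breast cancer resistance protein of the barrier, had 91.2, 83.5 and 87.3 TPM. The Abcc9 range covered the values of Abca1 and Abcg2. The calcium pump of the endoplasmic reticulum, Atp2a2 (SERCA2), was steady at 604, 584 and 589 CPM. Mitochondrial carriers were led by the ADP/ATP carriers Slc25a5 at 797 ± 9.50 TPM and Slc25a4 at 457 ± 23.3 TPM. Transporters with a wide spread included Slc4a5, a bicarbonate transporter of choroid plexus, at 5.88, 22.5 and 73.2 CPM, and Fxyd1, an ion transport regulator, at 16.6, 28.3 and 63.1 CPM, both lowest in library 1 and highest in library 3.

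Matrix genes were the most abundant of the 4 classes, with 226 of 284 genes detected, 79.6%, a median of 44.7 TPM over those detected and 7.53% of all counts (7.81%, 7.07% and 7.71% in libraries 1, 2 and 3). Collagens alone held 2.01% and matricellular and adhesive glycoproteins 2.13%. Per length Col4a1 and Col4a2, the α1 and α2 chains that form the main collagen IV trimer of basement membranes, led the 44 collagens with 3220, 2614 and 2821 TPM and with 2252, 1837 and 1978 TPM. Both were highest in library 1 and lowest in library 2. The trimer holds more α1 than α2 chains, and the ratio of the transcripts was 1.43, 1.42 and 1.43 in the 3 libraries, a CV of 0.236% where the single genes had CVs of 9.52% and 9.28%. Of the 22 gene pairs examined this ratio had the smallest CV. That CV is below what counting error alone would give for these counts, and it was picked as the smallest. It therefore does not measure how closely the 2 transcripts are held together.

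The promoters of this pair and of Rgs5 are shown because collagen IV had the steadiest pair ratio and Rgs5 was the most abundant pericyte gene. Col4a1 and Col4a2 lie on opposite strands with annotated start sites 21 bases apart, so their promoter windows, from 250 bases before to 50 after each start, share 78 bases. The windows are chr8:11312777-11313076 on the minus strand for Col4a1, chr8:11312555-11312854 on the plus strand for Col4a2 and chr1:169655251-169655550 on the plus strand for Rgs5 (RefSeq, GRCm38.p6, an older build than the mm39 of the authors). Each is written 5′ to 3′ on the strand of its gene. Capitals mark matches to CCAAT and GGGCGG on either strand, so that ATTGG and CCGCCC are the same motifs read from the other strand.
Col4a1: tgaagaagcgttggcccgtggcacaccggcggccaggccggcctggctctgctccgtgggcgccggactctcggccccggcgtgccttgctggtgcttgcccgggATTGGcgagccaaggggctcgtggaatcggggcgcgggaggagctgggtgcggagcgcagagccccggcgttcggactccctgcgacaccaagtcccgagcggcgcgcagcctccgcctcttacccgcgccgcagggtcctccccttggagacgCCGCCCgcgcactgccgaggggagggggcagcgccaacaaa
Col4a2: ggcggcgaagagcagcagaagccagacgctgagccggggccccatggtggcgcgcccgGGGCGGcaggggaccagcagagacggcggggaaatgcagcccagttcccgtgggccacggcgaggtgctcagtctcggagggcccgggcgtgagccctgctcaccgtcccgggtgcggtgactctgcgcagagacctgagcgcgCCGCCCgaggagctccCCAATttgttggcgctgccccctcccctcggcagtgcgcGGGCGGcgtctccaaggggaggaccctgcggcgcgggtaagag
Rgs5: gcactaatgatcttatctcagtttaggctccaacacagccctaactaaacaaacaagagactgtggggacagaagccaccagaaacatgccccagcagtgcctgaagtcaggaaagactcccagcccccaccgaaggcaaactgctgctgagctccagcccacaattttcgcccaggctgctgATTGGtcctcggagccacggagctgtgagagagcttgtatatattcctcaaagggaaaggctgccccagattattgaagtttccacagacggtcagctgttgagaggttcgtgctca
The Col4a1 window holds 1 CCAAT match and 1 GGGCGG match, the Col4a2 window 1 and 3, and the Rgs5 window 1 CCAAT match and no GGGCGG. The GGGCGG match after the Col4a1 start and the one after the Col4a2 start are the same bases of the shared stretch. Of 27025 mouse promoter windows of this length 37.9% hold CCAAT and 35.9% hold GGGCGG on either strand, so the matches are common ones and are given as a description.

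Fibrillar collagens followed collagen IV. Col1a2 had 2182, 2269 and 2142 CPM and Col3a1 had 1537, 1615 and 1571 CPM, and the ratio of Col1a1 to Col1a2 per length was 0.493, 0.486 and 0.519. Here the single genes, with CVs of 1.64% and 2.95%, were at least as steady as their ratio, whose CV was 3.41%. Col18a1, the basement membrane collagen that yields endostatin, had 666, 592 and 598 TPM. Other basement membrane genes were led by Nid1 (nidogen, the linker of laminin and collagen IV) at 854, 653 and 742 TPM, Lamc1 (laminin γ1) at 718, 583 and 650 TPM and Agrn (agrin) at 683, 526 and 612 TPM. Lamb2, Lamb1 and Lama4, the β and α chains, had means of 455, 404 and 342 TPM. All 6 were lowest in library 2, as was the family's share of counts at 1.15%, 0.967% and 1.11%. The ratio of Lamb1 to Lamc1 was nonetheless 0.620, 0.604 and 0.637.

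Elastic fiber genes centered on Eln, with 3308, 2409 and 3422 TPM and 50.7% of the summed level of its family. Ltbp4, which tethers latent TGF-β to elastic fibers, had 1068, 919 and 1076 TPM, and the fibulins Fbln5 and Fbln2, assembly proteins of these fibers, had 471 ± 42.5 and 416 ± 30.9 TPM (SD, n = 3). Eln, with a CV of 18.02%, was lowest in library 2. Sparc was the first of the matricellular genes at 6456, 5862 and 6431 TPM, followed by Vtn, Fn1 at 2394 ± 154 TPM and Sparcl1 at 2174 ± 152 TPM. Igfbp7, a vascular insulin-like growth factor binding protein, had 1643, 1287 and 1542 TPM. Igfbp2 had 741, 1042 and 1286 TPM, lowest in library 1 and highest in library 3 like the choroid plexus list. Spock2 (testican-2) and Bgn (biglycan) led the proteoglycans at 1269 ± 222 and 1125 ± 95.0 TPM with overlapping ranges.

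Matrix processing was led by Serpinh1, the collagen chaperone HSP47, at 1546, 1379 and 1572 TPM, and by P4hb, a subunit of prolyl 4-hydroxylase, at 798, 711 and 735 TPM. The cross-linking enzyme Lox had 104.8, 104.2 and 104.7 CPM. It was among the 10 genes picked for the smallest CV at a mean of 100 CPM or more. Matrix proteases and their inhibitors were detected in 48 of 74 genes. Adam15, the membrane-type protease Mmp14 and the inhibitor Timp2 had 299 ± 19.0, 286 ± 5.49 and 249 ± 18.9 TPM (SD, n = 3), and the first 2 had overlapping ranges. Adam10, Timp3 and Adamts1 followed at 233 ± 10.1, 202 ± 13.9 and 172 ± 15.1 TPM.

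Across all genes the 3 libraries were similar. Among 10299 genes at a mean of 10 CPM or more the median CV was 5.87%, 77.3% had a CV under 10% and 190 had a CV over 50%. Pearson's r of log2 CPM, with 0.5 CPM added, was 0.976 between libraries 1 and 2, 0.977 between 1 and 3 and 0.981 between 2 and 3; these are correlations across genes, which are not independent replicates. Between these pairs 223, 149 and 152 genes were over 2-fold apart. The variance of a gene over that of counting error, as chi-square over its degrees of freedom, had a median of 3.02. With 3 libraries counting error alone would give a median below 1. The biological coefficient of variation from edgeR, with 1 value over all filtered genes, was 17.5%. Papola, a poly(A) polymerase, had the smallest CV at a mean of 100 CPM or more, at 205.2, 204.7 and 204.8 CPM. Pcyox1, Atl3, Lox, Prdx1, Ik, Anapc2, Hdlbp, Sympk and Cpd came next, and the CVs ran from 0.118% to 0.408%. These CVs are below what counting error alone would give at such counts. They were the lowest picked from 2330 genes over 3 libraries, so they do not mark these genes as stable. Median CVs were 9.99% for channels, 9.90% for receptors, 8.44% for matrix genes and 7.02% for transporters at 10 CPM or more.

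The genes that differed most did so in 3 patterns. Only the 10299 genes at a mean of 10 CPM or more were counted, so markers below that mean could not enter. No gene was over 2-fold higher in library 1 than in both others. There 99 genes, 0.961%, were over 2-fold lower, among them 9 of 10 choroid plexus and 2 of 12 oligodendrocyte markers. In library 2, 98 genes, 0.952%, were over 2-fold higher than in both others. Among them were 7 of 12 astrocyte, 6 of 12 oligodendrocyte and 1 of 14 neuron markers. Sfrp2, a secreted Wnt modulator singled out here after its value was seen, was the 1 gene over 2-fold lower there. It had 6.73 CPM against 14.4 and 14.3 CPM. In library 3, 53 genes, 0.515%, were over 2-fold higher, among them 8 of 10 choroid plexus markers, and 5 genes, 0.0485%, were over 2-fold lower. Among the 190 genes with a CV over 50%, 104 had their lowest value in library 1 and their highest in library 2, and 76 had their lowest value in library 1 and their highest in library 3, which leaves 10 genes in other orders. The axonal kinesin genes Kif1a, Kif5a and Kif5c belonged to the first pattern, with 48.9, 446 and 118 CPM, 19.5, 194 and 46.7 CPM, and 13.7, 133 and 31.1 CPM. Slc4a5, Kcne2, Tmem72, Sostdc1, Vat1l, Ttr, Folr1 and Cldn2 belonged to the second. Folr1, a folate receptor of choroid plexus, had 9.78, 29.6 and 99.4 CPM, and Cldn2, the claudin of leaky epithelia, had 8.48, 24.5 and 81.6 CPM.

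Genes of the Y chromosome made up the third pattern. They had the largest spread of the genes at a mean of 10 CPM or more, provisional symbols left out. Ddx3y, an RNA helicase, had 89.0, 58.3 and 4.13 CPM in libraries 1, 2 and 3. Eif2s3y, a translation initiation factor subunit, had 47.2, 33.2 and 1.67 CPM, the histone demethylase Kdm5d had 42.3, 27.4 and 2.29 CPM, and its relative Uty had 23.5, 12.9 and 1.51 CPM. Within that limit these were the 4 genes with the largest SD of log2 CPM, from 1.87 for Uty to 2.44 for Eif2s3y, and all 4 were lowest in library 3. They were also the only Y-linked genes of 28 with values that reached a mean of 1 CPM. The labels give no sex. The remaining gene over 2-fold lower in library 3 was Gpnmb, a glycoprotein of activated macrophages named after its value was seen, at 38.1, 32.4 and 13.9 CPM. The macrophage lists were also lowest there, and their part in that value was not tested.

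**Figure D4:**
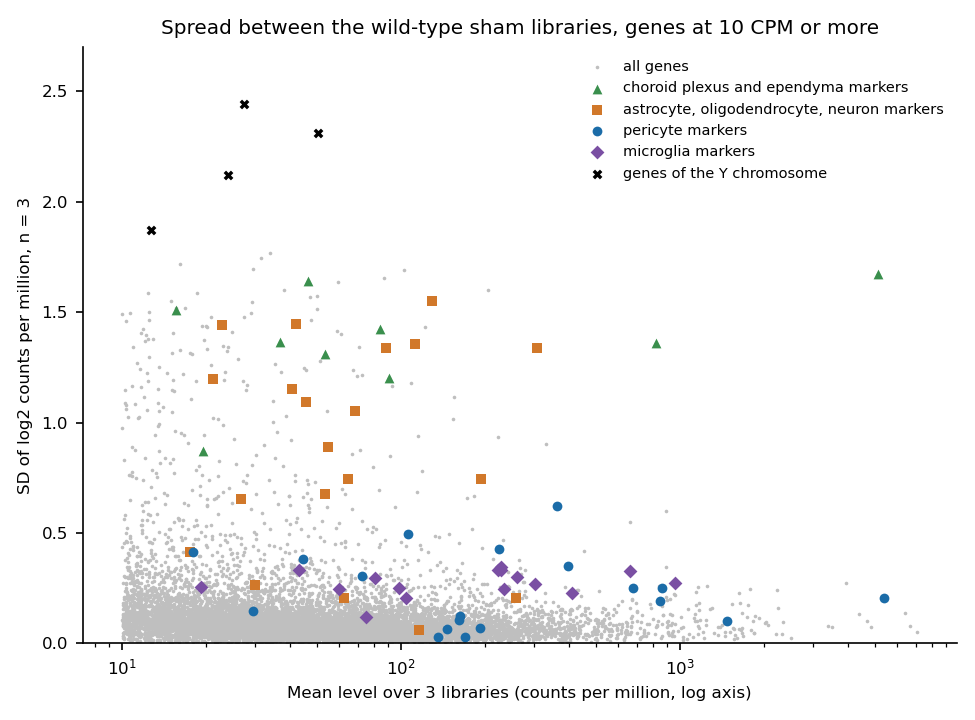
SD of log2 CPM over the 3 libraries against the mean level (CPM, log axis) for each of the 10299 genes at 10 CPM or more, with marker genes and Y-linked genes in color. The 4 Y-linked genes lie at the top with SDs from 1.87 to 2.44, choroid plexus and neural markers lie mostly above the bulk of genes, and pericyte and microglia markers lie lower, up to Abcc9.

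Ratios of partner genes describe how far 2 genes moved alike over these 3 libraries. Of 22 pairs, the ratio was steadier than both single genes in 10, less steady than both in 8 and in between in 4. Pairs of unrelated genes were not examined, so these counts do not show whether partners moved more alike than other genes. In library 2, 16 of 20 pericyte and 16 of 18 endothelial markers were lowest. Besides collagen IV, the guanylate cyclase subunits Gucy1a1 and Gucy1b1, which together form the nitric oxide receptor of contractile cells, had CVs of 16.6% and 18.1% and a ratio of 0.764, 0.788 and 0.784. Tie1 and Tek kept a ratio of 1.32, 1.26 and 1.32. The complement genes C1qa and C1qb of microglia kept a ratio of 1.01, 1.02 and 0.919. The least steady receptor pairs were Ednra to Ednrb and Pdgfrb to Pdgfra, given above, with CVs of the ratio of 57.6% and 32.4%. For Tfrc, the transferrin receptor of brain endothelium, and Fth1, the ferritin heavy chain, the ratio was 0.391, 0.271 and 0.267. The CV of a ratio does not depend on the lengths used, but its level does: with coding length the mean ratio went from 0.310 to 0.173 for Tfrc to Fth1 and from 0.620 to 0.413 for Lamb1 to Lamc1. It passed from below to above 1 for Kcnj8 to Abcc9, from 0.875 to 1.06, and for Gucy1a1 to Gucy1b1, from 0.779 to 1.02.

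**Figure D5:**
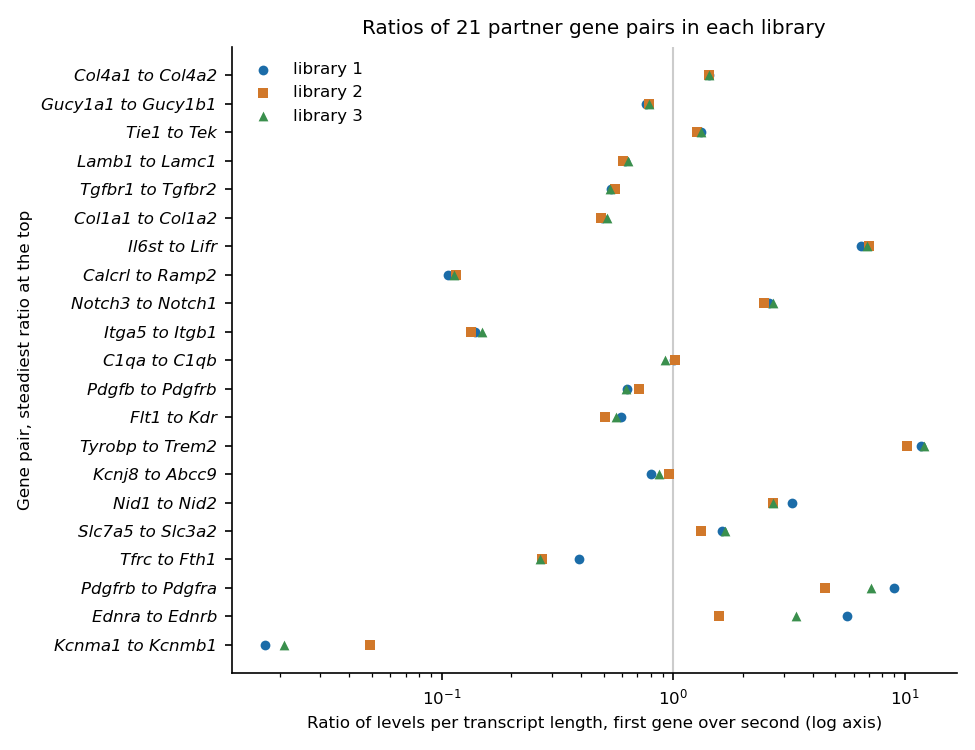
Ratio of the levels per transcript length of 21 of the 22 gene pairs (log axis) in libraries 1, 2 and 3 (blue circles, orange squares, green triangles), ordered by the CV of the ratio. Col4a1 to Col4a2 coincides at 1.42 to 1.43 in all 3 libraries, and Pdgfrb to Pdgfra, Ednra to Ednrb and Kcnma1 to Kcnmb1 are the widest.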

How the data were processed

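RNA of isolated PDGFRβ-positive mouse brain cells was sequenced by a commercial service, per the labels. The authors deposited 1 table of expected counts (estimated reads for each gene, not normalized), so read because 3.28% to 3.69% of the values in each library had decimals and RSEM is among the tools. The submitters' processing notes list HISAT2 2.1.0, Bowtie2 2.4.4, Bowtie, RSEM 1.3.1 and DESeq2 1.4.5 and the build mm39, with no roles; strand use is not given in the sources used here. Of 65535 lines, 47643 were blank, and say nothing about expression, while 17862 of the 17892 others matched a symbol. The table ends at 65535 lines and may have been shortened.

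CPM were computed on the unscaled totals. Lengths came from GENCODE M21 (longest transcript, 17692 genes matched; coding length, 17630 genes, as an alternative). TMM and the biological coefficient of variation came from edgeR 4.0.16 and size factors from DESeq2 1.42.0 in R 4.3.3, after rounding the expected counts; the edgeR step was tested on simulated data. Other values came from Python 3.11.15 with pandas 2.3.3. The design has 1 group, so no test was made. The text names the 20 genes of highest mean CPM and of highest level per length, up to 6 members per family of 45 families, partner pairs, cell type markers, the 15 genes of largest SD of log2 CPM at 10 CPM or more and the 10 of smallest CV at 100 CPM or more, other than genes with provisional symbols. The libraries, lists and rules were chosen with earlier results of these data known. Promoter sequences matched 14169 of the 17892 genes, too few for a comparison of promoter features between sets, which is not reported. A few genes that the rule would name are not reported here.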

Additional observations from a re-analysis of the deposited data

How the results depend on the processing

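With TMM or DESeq2 size factors in place of raw totals all 20 of the most abundant genes kept their place among the first 20, and leaving out each library kept 19 to 20. Detected genes numbered 13639 with at least 10 counts in every library, 15432 with any count and 13142 to 13383 without 1 library, against 13087. Coding length in place of transcript length moved 49.8% of 12995 detected genes by over 1.5 times, raised Rgs5 to 11611 TPM and Igf2 to 6882 TPM, and kept 14 of the 20 genes of highest level per length and 30 of 36 first family members. The changed first members included Kcne2 for Kcnj8, Pkd2 for Piezo1, Gpr4 for Gpr34, Lrp8 for Lrp1 and Timp3 for Adam15. Without library 1, 2 or 3, 35 of 36 stayed, and Kcnj13, Lrp8 or Clic1 came first in its family. The endothelial marker median was 4.07 times the pericyte median, 3.21 times with the mean of log2(CPM + 1) and 3.27 times with coding length, an alternative added after seeing the data, and 3.77 to 4.54 times without 1 library. The ratio of Col4a1 to Col4a2 was 1.496 with coding length against 1.43, and other pairs moved further, such as Tfrc to Fth1 from 0.310 to 0.173. The biological coefficient of variation was 18.8% without the low count filter, 17.7% without TMM and 16.0% to 19.3% without 1 library. Genes with a CV over 50% numbered 131 to 203 without 1 library, an added alternative. With 3 libraries a mean without 1 of them cannot move past the SD, so that the means kept within it shows no stability; the levels of 8 genes under TMM or DESeq2 scaling also kept within it. No paired analysis was possible because the result comes from no test and 1 group.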
